A study of Mus musculus with 6 samples.

Results

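The adenylyl cyclase genes Adcy1 to Adcy9 encode the 9 membrane-bound enzymes that make cyclic AMP from ATP. They were taken by gene symbol from a table of counts for 45777 genes, in which all 9 were found, and all 9 had enough counts to be tested among 19227 genes. The libraries were made from RNA of the anterior cingulate cortex, a midline region of the frontal cortex, of BALB/c mice, an inbred albino strain. Of the libraries, 3 came from mice put through 5 days of social defeat, in which an aggressive mouse attacks and subordinates the test mouse, and 3 came from mice kept without stress. The labels give no sex, age, allele, drug or batch, and they do not tie a library to an animal, so every p-value here speaks of the spread among these 6 samples. Totals ran from 41623899 to 47212982 counts per library.

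Membrane adenylyl cyclases are the point at which G protein-coupled receptors act on cyclic AMP. The stimulatory alpha subunits Gs and Golf activate them and the inhibitory Gi family restrains several of them. The isoforms differ in what else they read. Adcy1, Adcy3 and Adcy8 are stimulated by calcium and calmodulin, Adcy2, Adcy4 and Adcy7 are stimulated by G protein beta-gamma subunits once the stimulatory alpha subunit is bound, Adcy5 and Adcy6 are inhibited by calcium, and Adcy9 stands apart by its weak response to the plant compound forskolin. In the cortex, Adcy1 and Adcy8 are best known for coupling calcium entry at active synapses to cyclic AMP. The title of the series names calcium and cyclic AMP signalling downstream of these receptors, and the comparison asks whether the enzymes that join both signals differ in transcript level after stress.

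On principal component 1 of the log2 CPM (read counts scaled to a common library total), which held 34.5% of the variance, non-stress 2 and 3 scored 37.4 and 27.4, and non-stress 1 scored -11.7, beside the stress libraries at -14.9 to -20.4. Values without non-stress 1 are given for the members and leading pathway genes whose call moved without that library, and for some other genes. Slc17a7, the vesicular glutamate transporter of cortical excitatory neurons, stood at 1197 ± 83.8 CPM without stress and 1142 ± 12.6 CPM after stress (SD, n = 3). This marker does not tell the anterior cingulate from other cortex. The 9 markers of striatal projection neurons ran from 1.02 CPM (Adora2a) to 151 CPM (Ppp1r1b) in the mean without stress, with no reference level to set them against. Pituitary markers are given with the cell type markers below.

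Levels of different genes were compared as CPM per kilobase of the longest coding transcript, which is 12.26 kb for Adcy1 and 3.50 to 7.01 kb for the other 8. Adcy2 was the most abundant cyclase on this scale, at 55.1 to 62.3 CPM per kb over the 6 libraries (mean 58.4 ± 2.58, SD, n = 6). Adcy1 followed at 17.7 to 21.2 CPM per kb (19.4 ± 1.39), below Adcy2 in each of the 6 libraries by 3.01-fold on average. Together they made 73.7% of the summed level of the 9 genes, with 72.8% to 74.9% in single libraries. Adcy3, the cyclase of neuronal primary cilia and of olfactory neurons, and Adcy9 came next at 8.61 ± 0.622 and 8.24 ± 0.845 CPM per kb, and their ranges overlapped, with Adcy3 above Adcy9 in 4 of 6 libraries. Their order turned when length was taken as the union of exons or as the median coding transcript.

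The other 5 genes were lower. Adcy5, the main cyclase of the striatum, stood at 4.56 ± 0.490 CPM per kb and Adcy8 at 3.06 ± 0.383 CPM per kb, with no overlap between them. Adcy7, a cyclase also used by immune cells, stood at 1.58 ± 0.338 CPM per kb and overlapped Adcy6, which stood at 1.09 ± 0.0705 CPM per kb. Adcy6 stood at 3.05 CPM per kb with the median coding transcript, above Adcy7 (1.59) and beside Adcy8 (3.08) on that scale. Adcy4 was last at 0.587 ± 0.0913 CPM per kb, below Adcy6 in each library. The level of Adcy2 was 99.5-fold that of Adcy4. In bulk tissue a lower level may come from fewer cells of a type or from less RNA per cell, and these cannot be told apart.

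**Figure D1:**
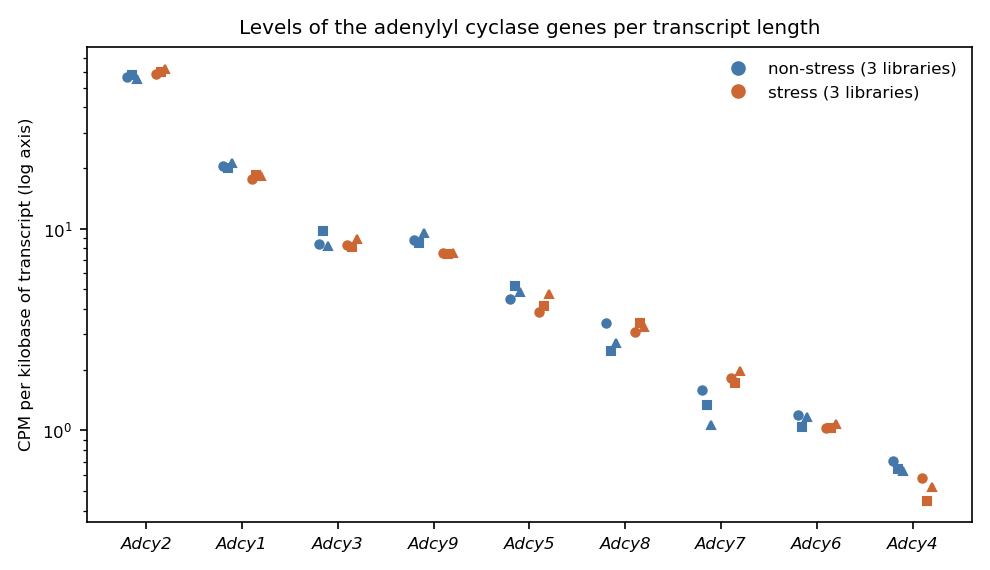
CPM per kilobase of the longest coding transcript (log axis) for each adenylyl cyclase gene, ordered by mean level; each point is 1 library (blue non-stress, orange stress; circle, square and triangle for replicates 1, 2 and 3). Adcy2 lies between 55.1 and 62.3 in every library and Adcy4 between 0.447 and 0.702, while Adcy3 and Adcy9 overlap, as do Adcy7 and Adcy6.

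The groups were tested with edgeR's quasi-likelihood method and Benjamini-Hochberg adjustment over the 19227 genes. Adcy1 and Adcy9 had mean levels 1.13-fold and 1.19-fold lower after stress and Adcy7 a mean level 1.39-fold higher, but 0 of the 9 genes passed at an adjusted p under 0.05, beside 0.00520% of all genes tested. The smallest adjusted p among the 9 was 0.344, shared by Adcy1, Adcy7 and Adcy9. DESeq2 called 1 member, Adcy1 (adjusted p = 0.0338), against 0.603% of all genes, and limma-voom called 0. Without non-stress 1, edgeR called Adcy1, Adcy7 and Adcy8, 3 of the 9, beside 3.85% of all genes tested in that fit. At an unadjusted p under 0.05 there were 4 members against 12.1% of all genes: Adcy1, Adcy5 and Adcy9 had lower values, against 6.27% of genes in that direction, and Adcy7 was higher, against 5.80%. The libraries of the groups did not overlap in 5 of the 9 genes, against 17.9% of genes. Stress lay below non-stress in Adcy1, Adcy4 and Adcy9 (9.43% of genes) and above it in Adcy2 and Adcy7 (8.43% of genes). The median log2 fold change of the 9 was -0.11, beside -0.001 over all genes tested.

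**Figure D2:**
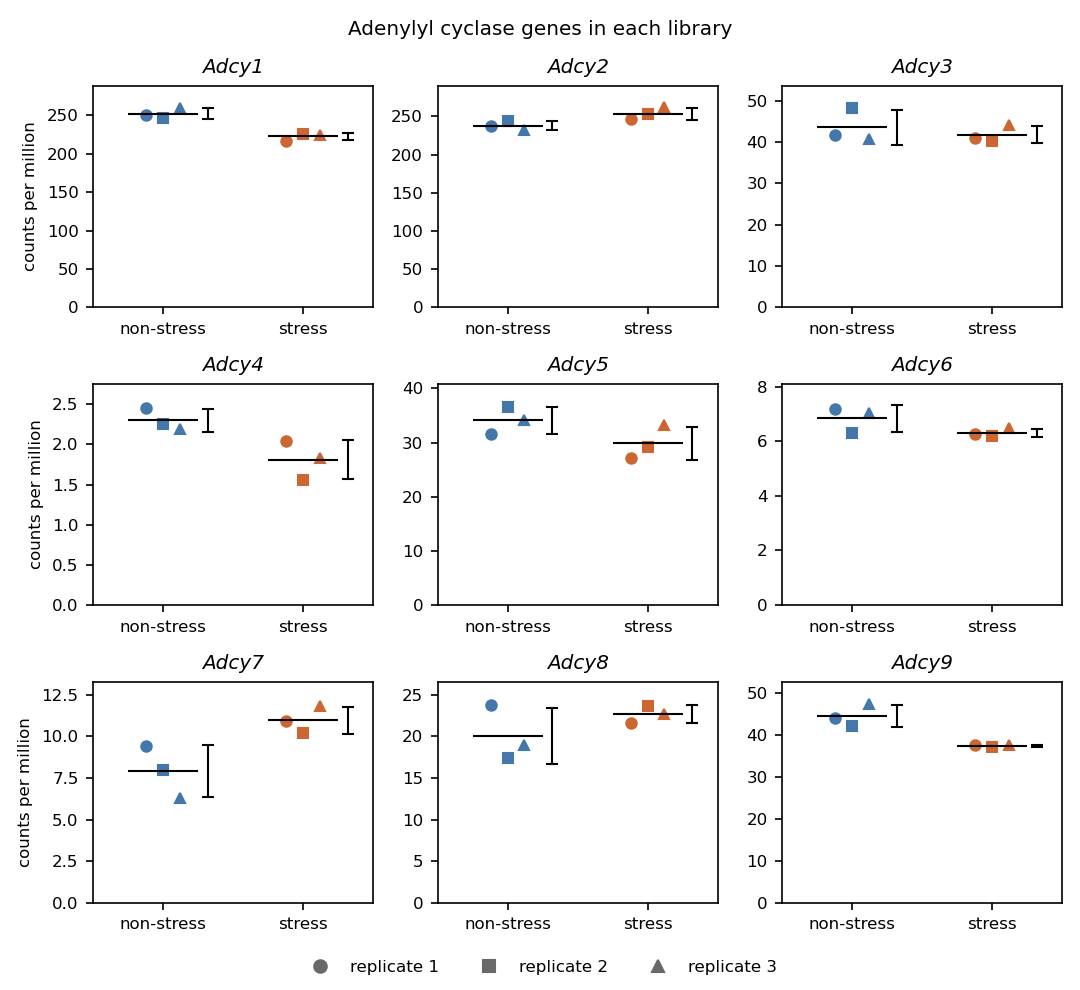
CPM of each adenylyl cyclase gene (vertical axes from 0) in the 3 non-stress (blue) and 3 stress (orange) libraries, with the group mean as a line and the SD as a bar beside it. In Adcy1, Adcy4 and Adcy9 all stress points lie below the non-stress points, and in Adcy2 and Adcy7 all lie above.

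Among the cyclases stimulated by calcium and calmodulin, Adcy1 (NCBI Gene 432530; chromosome 11, 7063489 to 7178506, plus strand, GRCm38) had 250, 247 and 260 CPM in the order non-stress 1, 2 and 3, then 217, 226 and 225 CPM for stress 1, 2 and 3. Every stress library lay below every non-stress library, and non-stress 1 lay among the other non-stress libraries. The group values were 252 ± 6.59 and 223 ± 5.02 CPM (SD, n = 3), and the log2 fold change was -0.18 (SE 0.04, 95% interval -0.27 to -0.09, adjusted p = 0.344 by edgeR), or 1.13-fold lower after stress. Without non-stress 1 Adcy1 passed (log2 fold change -0.185, adjusted p = 0.0359). With non-stress 1 alone standing for its group the log2 fold change was -0.166, a fit that assumes this lone library varies like the others.

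Adcy8 (Gene 11514; chromosome 15, 64697084 to 64922296, minus strand) had 23.8, 17.4 and 18.9 CPM without stress and 21.6, 23.7 and 22.7 CPM after stress. Non-stress 1 held the highest value of all 6, while non-stress 2 and 3 lay below every stress library. The log2 fold change was 0.18 (95% interval -0.06 to 0.42, adjusted p = 0.513). Without non-stress 1 it was 0.324 and passed (adjusted p = 0.045), and with non-stress 1 alone standing for its group it turned to -0.0677, so the direction for Adcy8 rests on which non-stress libraries are used.

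Adcy3 (Gene 104111; chromosome 12, 4133103 to 4213525, plus strand) had 41.7, 48.3 and 40.7 CPM without stress and 41.0, 40.2 and 44.2 CPM after stress. The groups overlapped, and the highest value was that of non-stress 2. The log2 fold change was -0.06 (95% interval -0.23 to 0.11, adjusted p = 0.776) and turned to 0.0272 without non-stress 2. Exons of Cenpo, a centromere protein gene on the opposite strand, share 1380 bases with those of Adcy3. Without knowledge of the strand setting their reads cannot be separated, although Cenpo itself stood at 4.17 ± 0.774 and 3.84 ± 0.300 CPM.

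Among the cyclases stimulated by beta-gamma subunits, Adcy2 (Gene 210044; chromosome 13, 68620043 to 68999541, minus strand) had 237, 244 and 232 CPM without stress and 246, 253 and 262 CPM after stress. The stress libraries all lay above the non-stress libraries, by a narrow margin between stress 1 and non-stress 2. The group values were 238 ± 6.11 and 254 ± 8.46 CPM, and the log2 fold change was 0.09 (SE 0.04, adjusted p = 0.417). The 95% interval of the fold ran from 1.00 to 1.14. An antisense gene, Gm35161, shares 189 exon bases with Adcy2 and stood at 6.97 ± 1.05 and 7.78 ± 0.574 CPM.

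Adcy7 (Gene 11513; chromosome 8, 88272403 to 88329962, plus strand) had the largest fold change of the 9. Its values were 9.42, 7.99 and 6.29 CPM without stress and 10.9, 10.2 and 11.8 CPM after stress, so that all stress libraries lay above non-stress 1, the highest of the other group. The group values were 7.90 ± 1.57 and 10.9 ± 0.822 CPM, and the log2 fold change was 0.47 (SE 0.14, 95% interval 0.16 to 0.78, adjusted p = 0.344), or 1.39-fold higher after stress. Without non-stress 1 Adcy7 passed at 0.612 on the log2 scale (adjusted p = 0.0246), and with non-stress 1 alone standing for its group the value was 0.221. Microglia, the immune cells of the brain, were followed by 5 markers (Cx3cr1, P2ry12, Tmem119, C1qa and Csf1r), of which 2 lay above 0 and 3 below, 0 passed, and all had counts. Their summed level was 267 to 271 CPM without stress and 257 to 272 CPM after stress. In Tmem119 and Csf1r all stress libraries lay below the non-stress libraries (log2 fold change -0.12 in both, adjusted p = 0.448 and 0.418). The part of microglia in the value of Adcy7 was not tested.

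Adcy4 (Gene 104110; chromosome 14, 55769057 to 55784095, minus strand) had the lowest counts, 106, 106 and 92 without stress and 85, 68 and 82 after stress. In CPM these were 2.46, 2.25 and 2.19 against 2.04, 1.56 and 1.83, without overlap. The log2 fold change of -0.34 had a wide error (SE 0.16, 95% interval -0.71 to 0.03, adjusted p = 0.441), so the interval of the fold ran from 0.61 to 1.02. The 8 endothelial and mural cell markers, from blood vessels where Adcy4 is also expressed, summed to 225 to 237 CPM without stress and 220 to 232 CPM after stress, with 0 passing and none at 0 counts. Of these 8, 3 had log2 fold changes above 0 and 5 below, with a median of -0.00. The 1 at an unadjusted p under 0.05, beside 12.1% of all genes, was Rgs5, a mural cell marker. It had 64.1, 61.2 and 65.7 CPM without stress against 56.5, 57.2 and 58.8 CPM after stress, without overlap (log2 fold change -0.14, adjusted p = 0.351). Its part in the value of Adcy4 was not tested.

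Neither cyclase inhibited by calcium passed the test. Adcy5 (Gene 224129; chromosome 16, 35154877 to 35305738, plus strand) had 31.6, 36.6 and 34.2 CPM without stress and 27.2, 29.2 and 33.2 CPM after stress. Stress 3 lay among the non-stress libraries and the groups overlapped. The log2 fold change was -0.19 (SE 0.09, adjusted p = 0.414), and it was -0.247 without non-stress 1 and -0.0755 with non-stress 1 alone standing for its group. It ran from -0.131 without stress 1 to -0.276 without stress 3, and was -0.0908 after removal of the dependence on GC content and length. Because Adcy5 is abundant in the striatum, 9 markers of striatal projection neurons were summed: they stood at 314 to 339 CPM without stress and 319 to 327 CPM after stress, with 0 passing and none at 0 counts. Drd2 was the 1 of these 9 at an unadjusted p under 0.05, beside 12.1% of all genes. All stress libraries of Drd2 lay below the non-stress libraries (1.08 ± 0.105 and 0.602 ± 0.134 CPM, log2 fold change -0.85, adjusted p = 0.344). The part of Drd2 in the value of Adcy5 was not tested. Adcy6 (Gene 11512; chromosome 15, 98589973 to 98610076, minus strand) had 7.17, 6.29 and 7.05 CPM without stress and 6.25, 6.21 and 6.48 CPM after stress. Only non-stress 2 reached into the stress range, and the log2 fold change was -0.11 (95% interval -0.33 to 0.11, adjusted p = 0.666), or -0.0394 with the same dependence removed. An antisense gene, Gm29331, shares 605 exon bases with Adcy6.

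Adcy9 (Gene 11515; chromosome 16, 4287529 to 4420498, minus strand) had 44.0, 42.1 and 47.4 CPM without stress and 37.6, 37.2 and 37.6 CPM after stress. The stress libraries were nearly equal and all lay below the non-stress libraries. The group values were 44.5 ± 2.67 and 37.5 ± 0.219 CPM, and the log2 fold change was -0.25 (SE 0.06, 95% interval -0.37 to -0.12, adjusted p = 0.344), or 1.19-fold lower after stress. DESeq2 gave adjusted p = 0.054. The log2 fold change was -0.256 without non-stress 1 (adjusted p = 0.054) and -0.227 with non-stress 1 alone standing for its group. It shrank to -0.16 (adjusted p = 0.401) when GC content and length were allowed for. The same step brought Adcy1 to -0.163 and Adcy4 to -0.261, nearer to 0. It moved Adcy2 to 0.14, Adcy7 to 0.518 and Adcy8 to 0.209, further from 0. With it, 0 of the 9 genes passed.

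**Figure D3:**
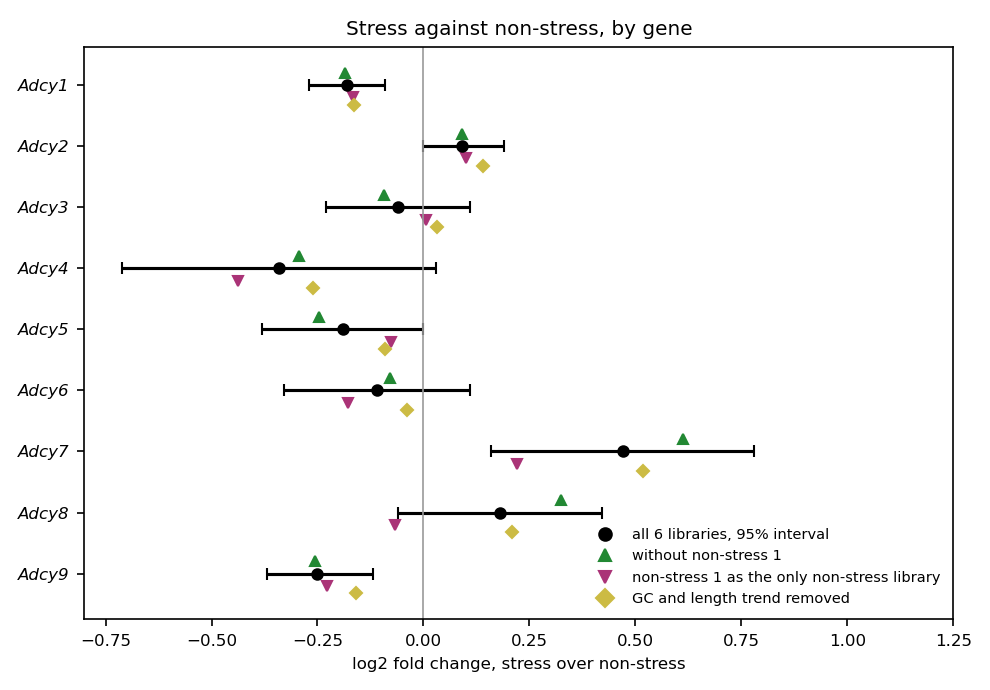
Log2 fold change of stress over non-stress for each adenylyl cyclase gene, with the 95% interval from all 6 libraries (black), and the value without non-stress 1 (green), with non-stress 1 alone standing for its group (purple) and with the dependence on GC content and length removed (yellow). Adcy1, Adcy4, Adcy5, Adcy6 and Adcy9 lie below 0 and Adcy2 and Adcy7 above 0 in all 4 values, while Adcy8 and Adcy3 cross 0. The 95% intervals of Adcy2, Adcy4 and Adcy6 hold 0.

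Because Adcy1 and Adcy9 were low in the same libraries and Adcy7 was high in them, the sequences before their starts are shown. The promoter table, from RefSeq on GRCm38.p6, held 10 windows of 300 bases for 7 of the 9 genes. Printed are the 250 bases before the start, on the strand of the gene, with TGACG on either strand in capitals. TGACG is the core of the cyclic AMP response element, TGACGTCA, to which CREB binds. Adcy1 is shown at chr11:7063183-7063432, Adcy9 at chr16:4420499-4420748, and Adcy7 at chr8:88282742-88282991, the start that holds TGACG among the 3 listed for that gene.

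Adcy1: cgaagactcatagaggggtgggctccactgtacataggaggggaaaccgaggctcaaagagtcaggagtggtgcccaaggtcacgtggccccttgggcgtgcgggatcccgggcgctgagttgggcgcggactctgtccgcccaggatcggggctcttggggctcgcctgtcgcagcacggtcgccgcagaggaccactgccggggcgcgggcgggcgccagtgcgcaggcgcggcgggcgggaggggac

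Adcy9: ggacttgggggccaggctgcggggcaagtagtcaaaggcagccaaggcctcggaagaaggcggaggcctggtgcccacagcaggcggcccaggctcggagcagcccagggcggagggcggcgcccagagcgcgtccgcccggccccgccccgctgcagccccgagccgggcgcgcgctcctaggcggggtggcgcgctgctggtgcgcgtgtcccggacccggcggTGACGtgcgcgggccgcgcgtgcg

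Adcy7: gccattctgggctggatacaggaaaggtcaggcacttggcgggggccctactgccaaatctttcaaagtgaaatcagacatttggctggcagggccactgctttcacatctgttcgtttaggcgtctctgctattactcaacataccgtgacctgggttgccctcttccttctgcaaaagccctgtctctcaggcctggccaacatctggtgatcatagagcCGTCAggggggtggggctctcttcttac

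The promoters of Adcy1 and Adcy9 are rich in G and C, at 71.2% and 78.8% of the printed bases, and that of Adcy7 less so, at 54.0%. Adcy1 and Adcy9 each held the GC box GGGCGG 5 times in the 300-base window and this start of Adcy7 held it 0 times. The other starts listed for Adcy7, at chr8:88288816-88289065 and chr8:88293954-88294203, held it 0 times and 1 time. Their bases before the start were 56.0% and 56.4% G and C. The contrast did not extend to the other members whose groups did not overlap. Adcy2, above non-stress after stress, had 73.2% G and C before its start and 3 GC boxes. Adcy4, below non-stress after stress, had 56.0% and 0 GC boxes. The GC box was in 6 of the 10 windows of the family and in 35.7% of 32851 promoter windows. TGACG was found 24 bases before the start of Adcy9 and, on the opposite strand, 28 bases before this start of Adcy7, and in no other window of the family. It is in 20.8% of all windows. The full TGACGTCA was in 0 of the 10 windows and in 1.79% of all, and the TATA box TATAAA was in 0 of the 10 and in 13.6% of all. These matches describe letters in these windows. The printed window of Adcy7 was picked because it holds TGACG, so that match is not a result.

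The summed level of the 9 genes differed between the groups by less than the spread among stress libraries, at 106 ± 1.32 CPM per kb without stress and 105 ± 3.25 CPM per kb after stress (SD, n = 3). The beta-gamma-stimulated class (Adcy2, Adcy4, Adcy7) made up 55.6%, 56.0% and 54.4% of it in the order non-stress 1, 2 and 3, then 59.4%, 59.4% and 59.6% for stress 1, 2 and 3. The calcium-stimulated class (Adcy1, Adcy3, Adcy8) made 30.6%, 30.2% and 30.7% without stress and 28.4%, 28.6% and 28.1% after stress. In both classes non-stress 1 lay with the other non-stress libraries. Adcy9 made 7.91% to 9.12% without stress and 6.96% to 7.39% after stress, and the calcium-inhibited class 5.40% to 5.85% and 4.80% to 5.35%. The shares are bound to sum to the whole, so a larger part for Adcy2 lowers the others. The ratio of Adcy2 to Adcy1 per kilobase was 2.76, 2.88 and 2.60 without stress and 3.29, 3.26 and 3.40 after stress. The class shares of the groups did not overlap with length taken as the longest coding transcript, the union of exons or the median coding transcript, beside 17.9% of single genes whose groups did not overlap. Since the shares depend on one another and Adcy2 makes up most of the largest, they count as 1 description and not as separate results.

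**Figure D4:**
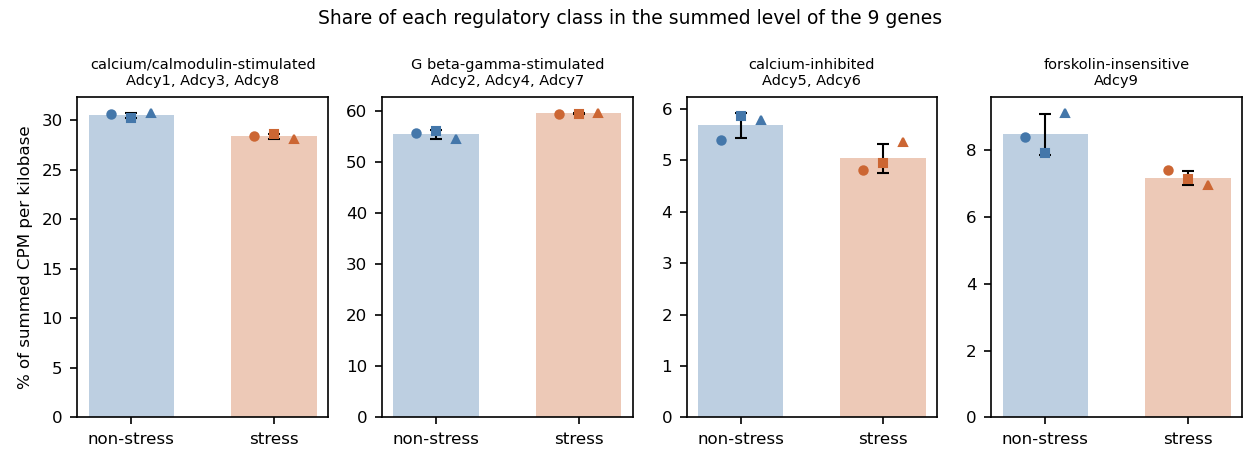
Share (%) of each regulatory class in the summed CPM per kilobase of the 9 adenylyl cyclase genes; bars start at 0 and show the group mean, error bars the SD of 3 libraries, and points the libraries. The beta-gamma-stimulated class is at 54.4% to 56.0% without stress and 59.4% to 59.6% after stress, and the other classes are lower after stress.

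Across the 6 libraries, log2 CPM of Adcy1 and Adcy9 had a Pearson r of 0.96, Adcy7 and Adcy9 of -0.89, and Adcy2 and Adcy9 of -0.88. The points share libraries and groups, so these values repeat in part the group differences above. Adcy1 had the smallest p of the 9. Of 10973 other genes with a mean of 5 CPM or more, those most like it over the 6 libraries were Scn8a (r = 0.996), Cln6 (0.988) and Rgl2 (0.982), and the least like was Gpr85 (-0.992). They are the extremes of a ranking of that many genes over 6 libraries, so the values are a description and not a test. Scn8a, which encodes the sodium channel of the axon initial segment, stood at 157 ± 5.27 CPM without stress and 140 ± 2.73 CPM after stress (log2 fold change -0.17, adjusted p = 0.344). Gpr85, an orphan receptor gene, stood at 56.5 ± 1.36 and 61.9 ± 0.549 CPM (0.13, adjusted p = 0.355).

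The other genes of the pathway were followed in 8 lists of 158 genes, of which 153 were tested. None passed edgeR's threshold. At an unadjusted p under 0.05, 13 were higher and 15 lower, 18.3% of those tested beside 12.1% of all genes, and the median log2 fold change was -0.01. DESeq2 called 4, namely Rxfp1, Vipr1, Grm7 and Hrh3, beside 0.603% of all genes. Without non-stress 1 edgeR called 11 of 154 tested, beside 3.85% of all genes. The lists were chosen with earlier results of these data known, so these shares are a description and not a test of the pathway.

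Among receptors that raise or lower cyclic AMP, differences ran both ways. Of 25 tested receptors that couple to the stimulatory G protein, 4 were higher and 5 lower at an unadjusted p under 0.05, with a median of 0.02. Of all genes tested, 5.80% were higher and 6.27% lower at that threshold. These shares stand beside each list count here and below. Rxfp1, the relaxin receptor, stood at 24.0 ± 0.863 CPM without stress and 30.8 ± 2.21 CPM after stress (log2 fold change 0.37, adjusted p = 0.291). Rxfp1 is also on the list of claustrum and deep-layer markers. With Rxfp1 included, their summed level was 99.5 to 107 CPM without stress and 121 to 128 CPM after stress. Vipr1, a receptor for vasoactive intestinal peptide, had 15.6, 15.1 and 14.8 CPM without stress and 11.1, 11.4 and 12.6 CPM after stress (-0.37, adjusted p = 0.338). Of 32 receptors that couple to the inhibitory family, 3 were higher and 3 lower, with a median of 0.02. Hrh3, the presynaptic histamine receptor, had 125, 161 and 133 CPM without stress and 100, 103 and 105 CPM after stress (-0.44, adjusted p = 0.291). Grm3, a metabotropic glutamate receptor, had 103, 71.4 and 75.4 CPM without stress and 116, 111 and 120 CPM after stress (0.48, adjusted p = 0.344), with non-stress 1 nearer to the stress libraries than to non-stress 2 and 3. For Grm3 the log2 fold change was 0.658 without non-stress 1 (adjusted p = 8.13e-05) and 0.176 with that library alone standing for its group, and for Hrh3 it was -0.521 (adjusted p = 0.00316) and -0.28. Rxfp1 also passed without non-stress 1 (0.373, adjusted p = 0.0295). So did Grm7, another metabotropic glutamate receptor, which moved from 0.304 to 0.416 (adjusted p = 0.00231).

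The next lists hold direct regulators of the enzymes. Of 19 G protein genes 1 was higher and 0 were lower at an unadjusted p under 0.05 (5.80% and 6.27% of all genes). Their median was -0.03. The leading genes were Gng13, a gamma subunit (log2 fold change 0.17, adjusted p = 0.388), and Gnb2, a beta subunit (-0.18, adjusted p = 0.414). Of 16 calcium and kinase regulators 1 was higher and 2 lower. Camk2g, a subunit of calcium/calmodulin-dependent kinase II, had 55.6, 56.9 and 57.4 CPM without stress and 48.4, 47.7 and 51.1 CPM after stress, without overlap (-0.21, adjusted p = 0.344). Camk2d, another subunit of that kinase, had 77.6, 54.5 and 57.3 CPM against 73.8, 78.4 and 74.8 CPM (0.26, adjusted p = 0.405), again with non-stress 1 among the stress values. Camk2d passed without that library (0.436, adjusted p = 0.00111) and turned to -0.0331 with it alone standing for its group. Of 12 scaffolds and partners 1 was higher and 1 lower. Akap9, which anchors protein kinase A and cyclases, had 99.4, 56.0 and 58.4 CPM without stress and 101, 102 and 101 CPM after stress (0.51, adjusted p = 0.363), and the value was 0.822 without non-stress 1 (adjusted p = 9.51e-06) and 0.0291 with it alone. Cap1, the cyclase-associated actin regulator, differed by -0.18 on the log2 scale (adjusted p = 0.388).

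Downstream, 3 of 25 tested cyclic AMP effectors were higher and 2 lower at an unadjusted p under 0.05 (5.80% and 6.27% of all genes). Pkig, an inhibitor of protein kinase A, had 191, 181 and 182 CPM without stress and 200, 202 and 202 CPM after stress (log2 fold change 0.13, adjusted p = 0.346). Hcn2, a channel gated by cyclic nucleotides, had 56.4, 72.5 and 51.1 CPM against 46.5, 50.2 and 46.0 CPM (-0.33, adjusted p = 0.351). Of 16 phosphodiesterases, which break cyclic AMP down, 0 were higher and 2 lower, led by Pde1b (-0.20, adjusted p = 0.374), and Pde4d differed by 0.22 on the log2 scale (adjusted p = 0.424). Of 8 tested cyclases outside the family, 0 passed in either direction at an unadjusted p under 0.05. Among them Gucy1a2, a guanylyl cyclase subunit, differed by 0.51 on the log2 scale (adjusted p = 0.466) and Npr2, a natriuretic peptide receptor with cyclase activity, by -0.24 (adjusted p = 0.442). Gucy1a2 passed without non-stress 1 (0.967, adjusted p = 0.00316) and turned to -0.112 with that library alone, and Npr2 moved to -0.0359 with it alone. The soluble, bicarbonate-sensitive Adcy10 had 39, 32 and 46 counts without stress and 32, 60 and 46 after stress.

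**Figure D5:**
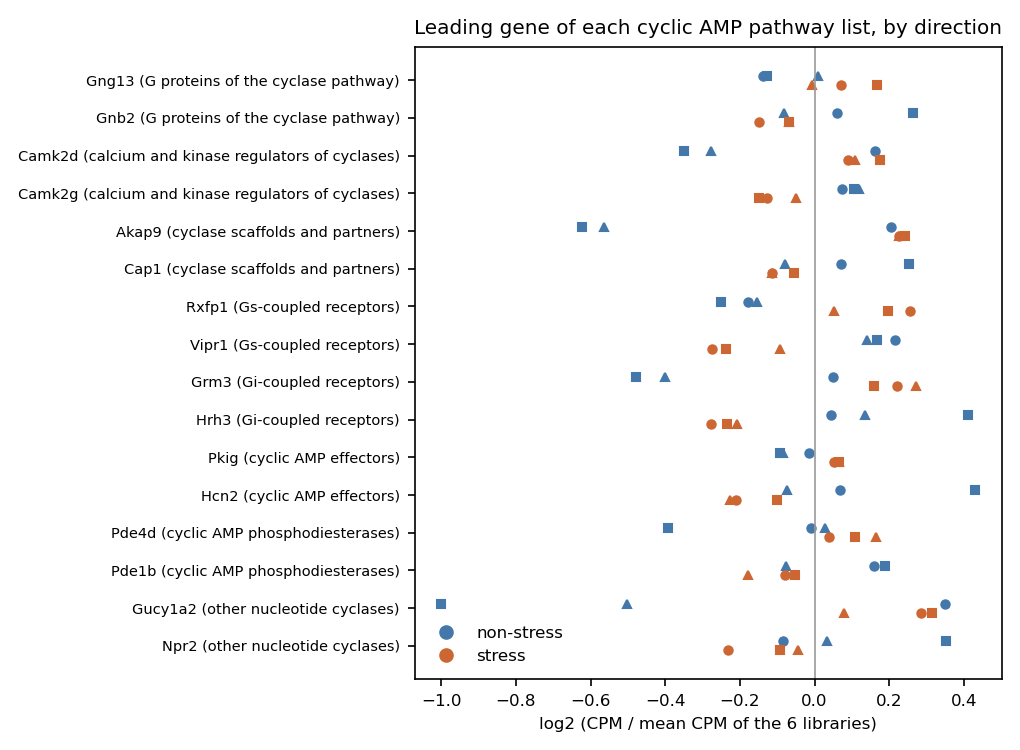
Log2 of CPM over the mean CPM of the 6 libraries for the gene of smallest p in each direction of each of the 8 cyclic AMP pathway lists (blue non-stress, orange stress; circle, square and triangle for replicates 1, 2 and 3). Vipr1, Hrh3 and Camk2g have all stress points below the non-stress points, while for Akap9, Camk2d and Gucy1a2 non-stress 1 lies near the stress points and apart from non-stress 2 and 3.

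Markers of cell types that express cyclases were measured in the same libraries, and 0 markers passed edgeR's threshold. The summed level of 5 excitatory neuron markers was 1496 to 1664 CPM without stress and 1522 to 1553 CPM after stress, and that of 6 astrocyte markers 2742 to 2844 and 2742 to 2828 CPM. Of the astrocyte markers 3 lay above 0 and 3 below in log2 fold change. Gfap among them had 26.6, 5.32 and 4.74 CPM without stress and 13.2, 12.5 and 14.5 CPM after stress. The 6 oligodendrocyte markers summed to 6038, 7495 and 7321 CPM without stress and 6718, 6639 and 7180 CPM after stress. The 6 inhibitory neuron markers summed to 775 to 866 and 846 to 857 CPM. Of these, 4 were at an unadjusted p under 0.05, beside 12.1% of all genes. Sst, somatostatin, was higher (240 ± 26.7 and 289 ± 6.19 CPM, DESeq2 adjusted p = 0.0248), and Gad1, Slc32a1 and Dlx1 were lower, with log2 fold changes of -0.11, -0.49 and -0.22. Gad2 (0.14) and Pvalb (-0.05) were not at that threshold. Of the 6 claustrum and deep-layer markers, 6 had log2 fold changes above 0, and DESeq2 called Ccn2 and Rxfp1. The list was chosen with earlier results of these data known, so its shared direction is a description and not a test. The 4 pituitary markers summed to 1.14 to 2.81 CPM without stress and 3.45 to 13.8 CPM after stress, and among them Gh, growth hormone, had 9, 6 and 0 counts without stress and 337, 400 and 30 after stress (DESeq2 adjusted p = 0.0204). Without non-stress 1, Ccn2 (log2 fold change 0.399, adjusted p = 0.0121) and Gh (6.42, adjusted p = 0.0302) passed edgeR's threshold. The part of the marker lists in the cyclase differences was not tested.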

How the data were processed

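RNA of 6 anterior cingulate cortex samples was sequenced. The deposited table holds whole-number counts per gene. Per the submitters' processing notes, reads were processed with Trimmomatic 0.38, HISAT2 and StringTie on GRCm38/mm10; neither the counting step nor its strand setting is stated in the sources used. Groups came from the sample labels. Counts were filtered with filterByExpr, scaled by TMM and compared with edgeR 4.0.16 (quasi-likelihood test, group only) in R 4.3.3, with Benjamini-Hochberg adjustment over 19227 genes; limma 3.58.1 (voom) and DESeq2 1.42.0 were alternatives. CPM use library totals. Transcript lengths, GC content and positions came from GENCODE M21, matched for 90.0% of tested genes. The dependence on GC content and length was fitted per library as a smooth curve. The scripts were tested on simulated data. Totals of 41623899 to 47212982 counts per library set the counting precision. Members and lists were chosen with earlier results of these data known. Named were all 9 members, the genes most and least like the member of smallest p, and in each pathway list the gene of smallest p in each direction. Other filters, scalings, lengths, a replicate block and leaving out each library were tried. Grm7, the single markers, Adcy10 and the overlapping genes were named outside that rule, where a result turned on them.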

Additional observations from a re-analysis of the deposited data

How the results depend on the processing

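Of the 9 cyclases, DESeq2 called 1 and leaving out single libraries called 0 to 3, with 3 only without non-stress 1. Of all genes tested, 1 was called by edgeR, 116 by DESeq2, 2 by limma-voom, 16 with non-stress 1 alone standing for its group, 2 with the replicate block, 3 with the GC content and length trend removed, 5 with both the block and that trend, and 1 to 756 when single libraries were left out, 756 without non-stress 1. Of the pathway list genes, 0 were called by edgeR, 4 by DESeq2, and 0 to 11 when single libraries were left out, 11 without non-stress 1. The log2 fold change of Adcy3 ran from -0.109 to 0.0272 when single libraries were left out, the latter without non-stress 2, and turned to 0.00668 with non-stress 1 alone standing for its group, 0.0311 with the trend removed and 0.0319 with block and trend, and those of Adcy8, Camk2d and Gucy1a2 to -0.0677, -0.0331 and -0.112 with non-stress 1 alone standing for its group. The cause was not tested. The summed level per kilobase was 105 CPM per kb, 102 with the union of exons and 109 with the median coding transcript, where the length used sets the value, and 105 to 106 when single libraries were left out. Same-numbered libraries correlated at 0.016, -0.0298 and 0.0209 in their deviations from the group means, so the numbers were not taken as pairs, and not every library correlated best with its own number. With the replicate block, 0 cyclases were called.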
